A study of Homo sapiens with 6 samples.

Results

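The genes described here are 45 genes of the hypoxia-inducible factor (HIF) pathway, of 62700 gene IDs counted. They were chosen by name as HIF subunits, the enzymes that regulate those subunits, and HIF target genes outside glycolysis. All 45 matched an ID in the count table, and all 45 were among the 20511 genes that passed the filter on low counts. RNA came from HEK293T, a transformed line from human embryonic kidney with the large T antigen of SV40, and both groups received plasmid by lipofection. The 3 editor libraries came from cells given SpRY-ABE8e, in which a Cas9 with relaxed sequence demands carries a deaminase that turns adenine to guanine in DNA, with guides to both splice sites of APP exon 17. The 3 GFP libraries came from cells given a GFP plasmid, so the groups differ in the editor and in the guides together. The time after transfection, the oxygen level and the density of the cultures were not stated in the labels.

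HIF is a transcription factor made of an alpha subunit (HIF1A or EPAS1) and the constant partner ARNT. In oxygenated cells, prolyl hydroxylases of the EGLN family mark the alpha subunits, VHL then directs their ubiquitination and destruction, and the asparaginyl hydroxylase HIF1AN blocks their transactivation. When oxygen is short, or when the hydroxylases lack iron or their oxoglutarate co-substrate, the alpha subunits persist and the dimer binds DNA at the hypoxia response element, whose core reads RCGTG. Control of the alpha subunits acts mainly on the protein, which RNA counts do not measure. Target genes serve glycolysis, mitochondrial turnover, collagen maturation, blood vessel growth and feedback on the pathway itself.

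The target genes stood lower in the editor libraries, and the subunit and regulator genes showed no common direction. Of 37 targets, 35 had a log2 fold change (editor minus GFP) below 0, where 45.7% of all 20511 genes tested did, and their median was -0.32 against 0.02 for all genes. In 24 of the 37, every editor library lay below every GFP library, a separation found in 6.12% of all genes, and in 0 of the 37 did every editor library lie above, as in 8.63% of all genes. The 8 subunit and regulator genes had a median of -0.01, with 4 below 0 and 4 above. No single member passed a Benjamini-Hochberg adjusted p of 0.05 in edgeR's quasi-likelihood test over all genes (0 lower and 0 higher, where 0% of all genes were called lower and 0.0244% higher). At an unadjusted p under 0.05, 20 targets were lower and 0 higher, where 2.57% of all genes were lower and 6.1% higher. Editor libraries 2 and 3 were nearly alike, so they may not count as 2 separate replicates in these figures. With those libraries summed, 15 targets were lower at an unadjusted p under 0.05 by edgeR, where 0.963% of all genes were. With limma-voom 0 members passed, where 3 of all 20511 genes were called higher and 0 lower. With DESeq2 5 were lower, where DESeq2 called 0.156% of all genes lower. Without the low-count filter edgeR called 6 lower, where it called 0.29% of all genes lower.

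**Figure D1:**
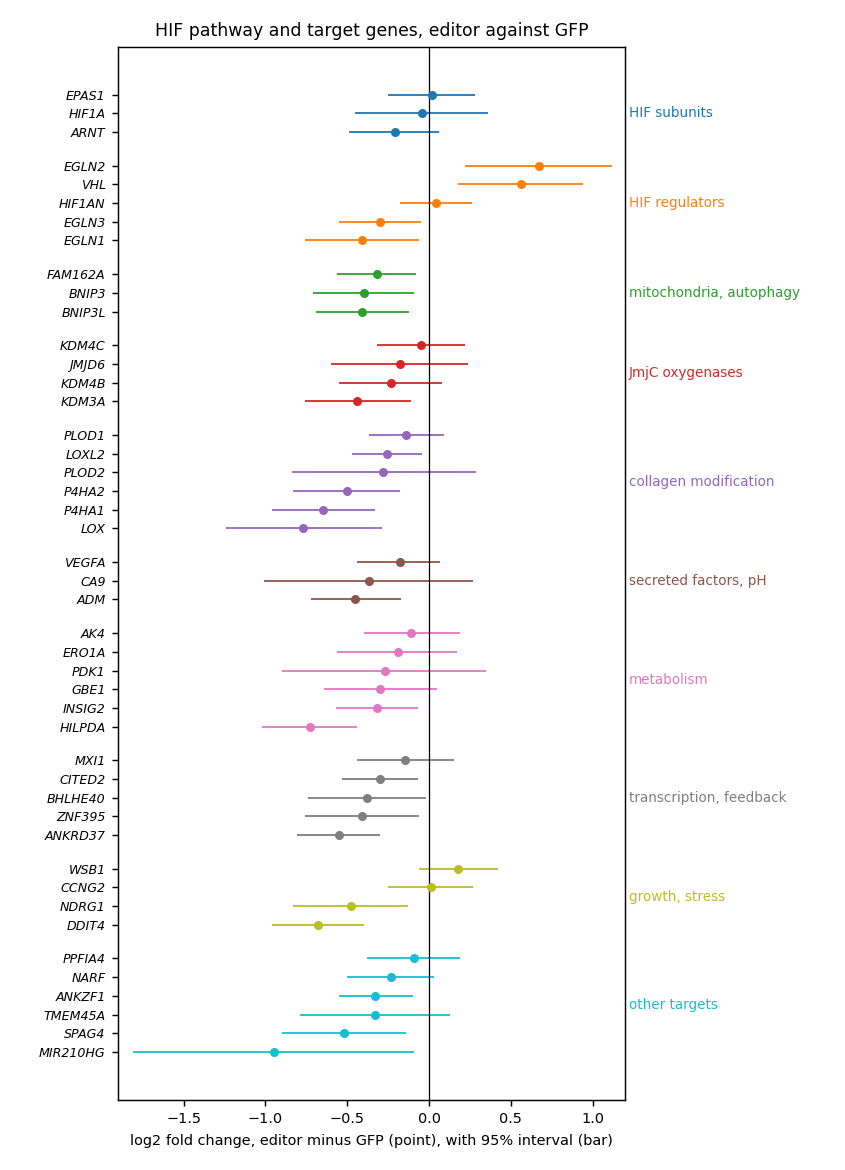
Log2 fold change of each of the 45 genes, editor minus GFP (x axis; point, edgeR estimate; bar, 95% interval), with genes grouped by role (y axis). The 37 targets lie below 0 except CCNG2 and WSB1, whereas the subunits and regulators spread from -0.41 to 0.67.

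The sequence around the target promoters was compared first, because the list is defined by a shared regulator. The motif ACGTG, the most common form of the response element core, was searched on both strands (ACGTG or CACGT) from 250 bases before to 50 bases after each listed RefSeq start (GRCh38.p14). Of the 37 targets 28 had an entry, and 23 of these (82.1%) held the motif in at least 1 listed window. The share was 28.6% of 7 subunit and regulator genes, 65% of 20 glycolysis genes, 31.5% of 12804 genes tested here with an entry, and 24.9% of all 27305 genes in the table. A match is a string of letters and not a binding site, the overlapping palindrome CACGTG is also an E-box, and ADM had no match in its window. Among the targets with the smallest p whose sequence could be shown, DDIT4 is shown with the stretch before its start that holds no annotated exon, and ANKRD37, P4HA1 and LOX with the 30 bases richest in the motif (5′ to 3′ on the strand of the gene, motif in capitals):
DDIT4, chr10:72273674-72273919, plus strand: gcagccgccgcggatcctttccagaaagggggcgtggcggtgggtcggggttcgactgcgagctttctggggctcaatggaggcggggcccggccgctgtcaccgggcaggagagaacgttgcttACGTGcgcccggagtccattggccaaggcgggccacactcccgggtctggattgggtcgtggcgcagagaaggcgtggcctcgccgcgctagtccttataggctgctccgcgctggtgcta
ANKRD37, chr4:185396673-185396702, plus strand: gggctcCACGTGccagtgtttgtgtACGTG
P4HA1, chr10:73096936-73096965, minus strand: gtgtgatcgagctCACGTagcgagggctgc
LOX, chr5:122078350-122078379, minus strand: cttgCACGTttccaatcgcattACGTGaac
The DDIT4 motif begins 125 bases before the start site. Its stretch also holds, in lower case, GCGTG, the other form of the core RCGTG, which was not searched. ANKRD37 carries a palindrome 162 and a second copy 143 bases before its start. P4HA1 has a single copy 86 bases before its start, on the opposite strand. LOX has 4 copies before the start shown, of which those at 116 and 98 bases lie in the stretch printed.

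Among the subunits, HIF1A (ENSG00000100644.17, chromosome 14, 61695513 to 61748259 on GRCh38) encodes the broadly expressed alpha subunit. Its read counts scaled to library size (CPM) were 169, 127 and 128 in editor libraries 1 to 3 and 111, 162 and 164 in GFP libraries 1 to 3. The groups overlapped throughout, with the highest value in an editor library and the lowest in a GFP library. The difference on the log2 scale was -0.04 (SE 0.18, adjusted p = 0.957 by edgeR, 95% interval -0.45 to 0.36), and its sign turned with library totals (0.00504). EPAS1, the alpha subunit best known from endothelium and kidney interstitium, had 61.4, 55.7 and 54 CPM in the editor and 49.2, 61.9 and 57.8 CPM in the GFP libraries. That too was a full overlap, with a log2 fold change of 0.02 (95% interval -0.25 to 0.28), or -0.00282 with RLE scaling. ARNT, the dimer partner, had 128, 105 and 105 CPM against 120, 130 and 142 CPM. Editor libraries 2 and 3 lay below all GFP libraries and editor library 1 did not (log2 fold change -0.21, 95% interval -0.49 to 0.06).

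The regulators divided into members above and members below the GFP level. VHL, the substrate receptor of the ubiquitin ligase (chromosome 3, 10141008 to 10152220), had 61.1, 91.3 and 92.6 CPM in the editor and 49.2, 59.5 and 57.8 CPM in the GFP libraries. The groups did not overlap, but editor library 1 exceeded the nearest GFP library by far less than editor libraries 2 and 3 did. VHL stood at a log2 fold change of 0.56 (95% interval 0.18 to 0.94, SE 0.17, adjusted p = 0.504), and it was called higher when editor library 1 was left out (log2 fold change 0.71, adjusted p = 0.0456, where 0.748% of all genes were called higher). EGLN2, a prolyl hydroxylase that is known not to be hypoxia-inducible, had 0.881, 1.28 and 1.2 CPM against 0.7, 0.738 and 0.681 CPM. The groups were apart here too, at 0.67 on the log2 scale (SE 0.20, adjusted p = 0.491), but on 82 to 191 reads per library. Its exons overlap other genes over 30.6% of their length, chiefly the read-through gene RAB4B-EGLN2. RAB4B-EGLN2 was listed at 0 reads in every library, so the EGLN2 count is uncertain.

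The other prolyl hydroxylases, which HIF itself induces, lay on the low side. EGLN1, the main oxygen sensor of the family, had 21.8, 19.4 and 18.8 CPM in the editor and 21.4, 32.2 and 25.8 CPM in the GFP libraries. Editor library 1 overlapped GFP library 1 there, at -0.41 on the log2 scale (95% interval -0.76 to -0.06, SE 0.15). EGLN3 had 44.4, 37 and 37.7 CPM against 52.1, 46.2 and 48.1 CPM, with no overlap (log2 fold change -0.30, SE 0.11). HIF1AN, whose RNA is not known as a hypoxia target, had 71.1, 78.6 and 79.8 CPM against 73.8, 73.5 and 75.5 CPM, at 0.04 (95% interval -0.18 to 0.26). Its interval was the narrowest of the 5 regulators.

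Per length, as counts per kilobase of exon scaled to the same sum in every library (TPM), HIF1A was the most abundant of the 8 in the GFP libraries at 106 ± 23.4, followed by ARNT at 75.1 ± 7.56 (SD, n = 3). The ranges of HIF1A and ARNT overlapped, so their order is not set. VHL followed at 49.3 ± 5.69 TPM, EPAS1 at 28.9 ± 3.73 and EGLN3 at 24.8 ± 1.18, the last pair with overlapping ranges. HIF1AN stood at 19.9 ± 0.601, EGLN1 at 13.7 ± 2.94 and EGLN2 at 0.402 ± 0.0172 TPM, each without overlap with its neighbour. The EGLN2 level rests on the count called uncertain above. Lengths are unions of all annotated exons, so a gene with long exons that are seldom used is understated.

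**Figure D2:**
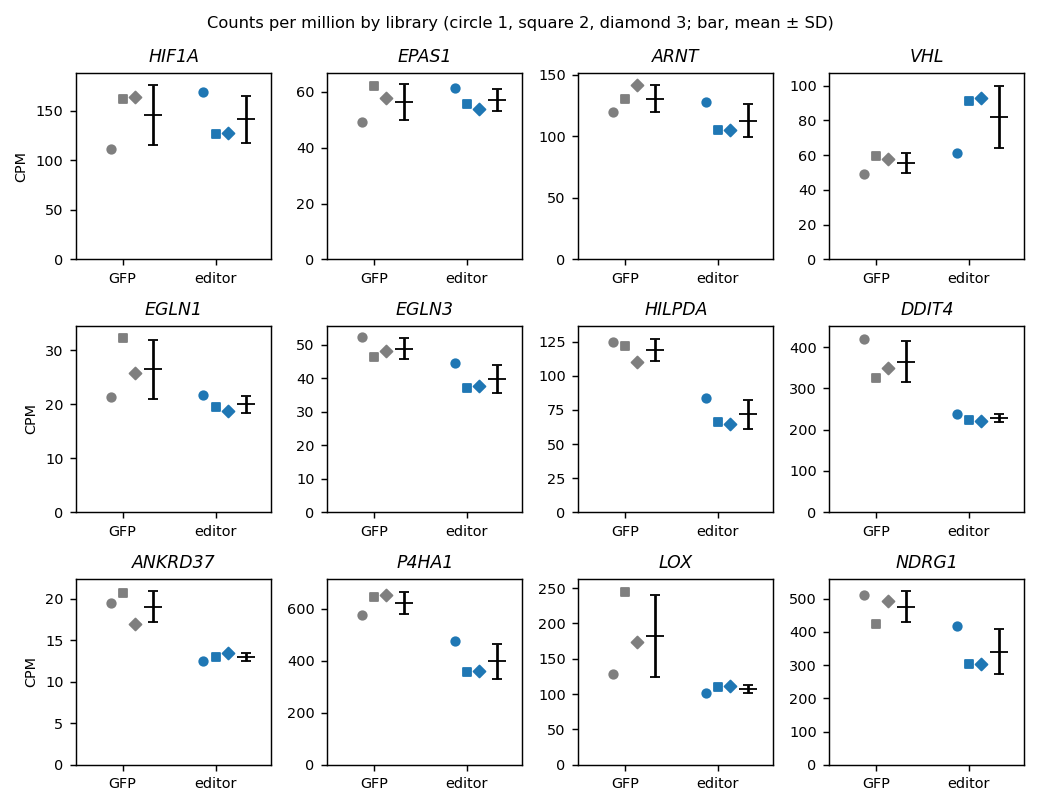
Scaled counts (CPM) in each library (y axis, from 0) for 6 subunit and regulator genes and 6 targets, GFP in grey and editor in blue (x axis), with circle, square and diamond for libraries 1, 2 and 3 and a bar for mean ± SD. HIF1A and EPAS1 overlap between groups, VHL is higher in all 3 editor libraries, and the 6 targets from HILPDA to NDRG1 are lower in all 3.

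Collagen-modifying enzymes held some of the lowest values. P4HA1, the catalytic subunit of collagen prolyl hydroxylase and the most abundant of all 45 genes per length in the GFP libraries (756 ± 64.3 TPM, in a range that overlaps that of DDIT4), had 477, 357 and 362 CPM in the editor and 576, 645 and 652 CPM in the GFP libraries. Its log2 fold change was -0.65 (SE 0.14, adjusted p = 0.4), with editor libraries 2 and 3 lower than editor library 1. P4HA2, the alternative catalytic subunit, had 76.7, 56.1 and 56.7 CPM against 94.6, 82.3 and 91.8 CPM, at -0.50 (SE 0.14). Both were called lower by edgeR without editor library 1 (adjusted p = 0.0407 and 0.0447), where 0.254% of all genes were called lower. LOX, which cross-links collagen and elastin, had 101, 110 and 111 CPM against 128, 244 and 174 CPM. Its editor values were close together and its GFP values ranged widely, so the log2 fold change of -0.77 (SE 0.21) became -0.50 without GFP library 2 and -0.98 without GFP library 1. The relative LOXL2 stood at -0.26 with separate groups. The lysyl hydroxylases PLOD1 and PLOD2 stood at -0.14 and -0.28, and PLOD2 reached 0.01 without GFP library 2.

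Metabolic targets outside glycolysis were led by HILPDA, an inhibitor of triglyceride breakdown in lipid droplets (chromosome 7, 128455849 to 128458418). It had 83.9, 66.3 and 65 CPM in the editor and 125, 122 and 110 CPM in the GFP libraries. The gap between the groups exceeded the spread within either of them, and the log2 fold change of -0.73 (SE 0.13, 95% interval -1.02 to -0.44, adjusted p = 0.373) had the smallest unadjusted p of the 45 genes. INSIG2, which retains the sterol sensor complex in the endoplasmic reticulum, stood at -0.32 with separate groups. The other members overlapped between groups. PDK1, the kinase that closes pyruvate entry into mitochondria, had 67.1, 128 and 128 CPM against 95.7, 171 and 124 CPM, with the lowest value in editor library 1 and no separation of the other 2 (log2 fold change -0.27, 95% interval -0.90 to 0.35). GBE1, the glycogen branching enzyme, stood at -0.30, ERO1A, an oxidase of protein disulfide formation, at -0.19 and AK4, a mitochondrial adenylate kinase, at -0.11.

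Among growth and stress regulators, DDIT4, an inhibitor of mTORC1, had 239, 223 and 222 CPM in the editor and 420, 325 and 350 CPM in the GFP libraries. The highest editor value lay well below the lowest GFP value (log2 fold change -0.68, SE 0.12, adjusted p = 0.373). DDIT4 is also induced by glucocorticoids and by other stresses, and 41.2% of its exon length overlaps annotated exons of other genes, mostly of an antisense gene, so some of its reads cannot be told apart without strand. NDRG1, a stress-responsive gene, had 418, 303 and 302 CPM against 511, 424 and 493 CPM, at -0.48 (SE 0.15). Editor library 1 lay just under the lowest GFP library. NDRG1 was called lower by edgeR without editor library 1 (log2 fold change -0.67, adjusted p = 0.0494), where 0.254% of all genes were called lower. The cyclin CCNG2 at 0.01 (95% interval -0.25 to 0.27) and WSB1, a ubiquitin ligase adaptor, at 0.18 (-0.06 to 0.42) were the 2 targets not below 0.

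Transcription and feedback genes were below 0 in 5 of 5 (45.7% of all genes), and in 4 every editor library lay below every GFP library (6.12% of all genes). ANKRD37, a small ankyrin repeat gene, had 12.5, 13 and 13.5 CPM in the editor and 19.5, 20.7 and 17 CPM in the GFP libraries, or -0.55 on the log2 scale (SE 0.11, adjusted p = 0.4). The 3 editor values were nearly equal. Over 35.2% of its exon length it overlaps other genes, chiefly UFSP2 on the opposite strand. BHLHE40, a transcriptional repressor, stood at -0.38. ZNF395 stood at -0.41, and 34.9% of its exon length overlaps other genes, chiefly FBXO16 on the same strand. CITED2, which competes with HIF for its coactivators, stood at -0.30, and MXI1, an antagonist of MYC, at -0.15 with overlapping groups.

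In the mitochondrial genes BNIP3, BNIP3L and FAM162A every editor library lay below every GFP library, as in 6.12% of all genes. BNIP3L, a mitophagy receptor, had 167, 164 and 167 CPM in the editor against 187, 248 and 227 CPM in the GFP libraries, at -0.41 (SE 0.12). The related BNIP3 had 182, 230 and 230 CPM against 258, 317 and 270 CPM, at -0.40, and FAM162A stood at -0.32. Of the JmjC oxygenases, KDM3A, a histone H3 lysine demethylase, had 148, 147 and 144 CPM against 160, 235 and 199 CPM, at -0.44 (SE 0.14). KDM4B stood at -0.23 with separate groups, JMJD6 at -0.18 and KDM4C at -0.05, and KDM4C reached 0.02 without GFP library 2.

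ADM, which encodes the vasodilator peptide adrenomedullin, had 15, 18 and 17.6 CPM in the editor and 23.2, 25 and 20.7 CPM in the GFP libraries. Its groups were apart at -0.45 (SE 0.12, adjusted p = 0.465). VEGFA, the main angiogenic growth factor, stood at -0.18 with groups apart by a small gap (highest editor value 74.3, lowest GFP value 74.6 CPM). CA9, a carbonic anhydrase often used as a hypoxia marker, had 33 to 83 reads in the editor and 59 to 97 in the GFP libraries, under 1 CPM throughout, and its groups overlapped (-0.37, 95% interval -1.01 to 0.27). Its exons overlap other genes over 38.5% of their length, chiefly ARHGEF39 on the opposite strand. ARHGEF39 had 3358 to 4733 reads per library, so the CA9 count is uncertain without strand.

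The remaining targets were all below 0. ANKZF1, which acts in ribosome quality control, had 41, 41.6 and 41.4 CPM against 56.1, 51.4 and 48 CPM, at -0.33 (SE 0.10). SPAG4, a SUN-domain protein gene, had 2.63, 3.29 and 3.51 CPM against 5.2, 4.36 and 3.98 CPM, at -0.52 (SE 0.17). Both had separate groups. NARF stood at -0.23 with separate groups, and TMEM45A and PPFIA4 at -0.33 and -0.09 with overlapping groups. MIR210HG, the host transcript of a hypoxia-induced microRNA, had the lowest fitted log2 fold change, -0.95 (95% interval -1.81 to -0.09), on 5 to 14 reads in the editor and 11 to 20 in the GFP libraries. At that depth little weight can be put on its size, and the mature microRNA is not measured by polyA libraries.

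**Figure D3:**
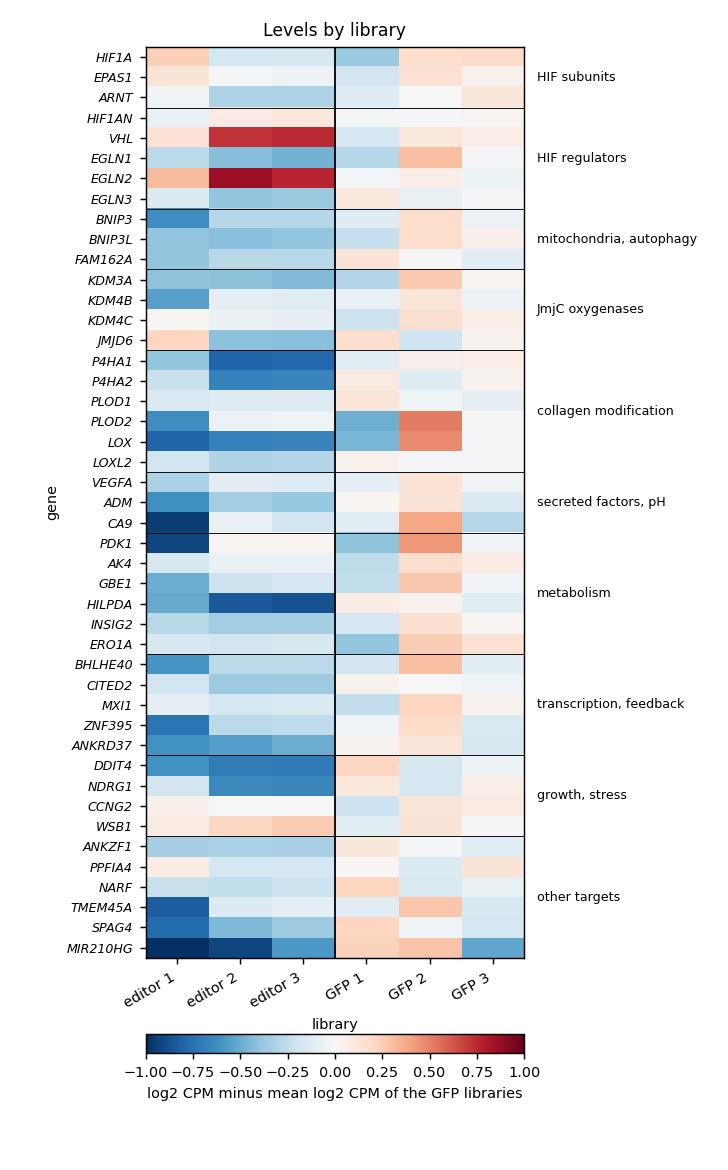
Log2 CPM of each of the 45 genes (y axis, grouped by role) in each library (x axis), minus the mean of the 3 GFP libraries, with the colour scale ending at -1 and 1. Most target rows are blue in all 3 editor libraries, with VHL and EGLN2 red in editor libraries 2 and 3.

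The libraries did not stand apart in the same way for all members. The 6 libraries held 110519197 to 152625595 counts. Editor libraries 2 and 3 resembled each other far more than any other pair (chi-square per degree of freedom 3.4, against 34.7 to 196 for the other pairs within a group), and editor library 1 lay nearest to GFP library 3 (42.7). Even so, 32 of the 37 targets lay below the GFP mean in editor library 1, against 34 in editor library 2 and 35 in editor library 3. In GFP libraries 1 to 3 it was 21, 11 and 24 of the 37. Over all 20511 genes, 9706, 9444 and 9403 lay below the GFP mean in editor libraries 1 to 3. The median difference of the targets from the GFP mean was -0.39, -0.28 and -0.28 in editor libraries 1 to 3. In the GFP libraries it was -0.10, 0.13 and -0.03, so the lowest GFP library lay above the highest editor library. The GFP libraries make up the mean they are measured from, so they lie around 0 by construction, which the editor libraries need not. Editor library 1 was the lowest editor library for 20 targets, such as BNIP3, PDK1, ZNF395 and SPAG4, and the highest for 15, such as P4HA1, P4HA2, HILPDA and NDRG1. Over all genes it was the lowest for 46.7% and the highest for 43.2%. Among GFP libraries the second was the highest for 23 of 37 targets, where it was for 33.2% of all genes.

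**Figure D4:**
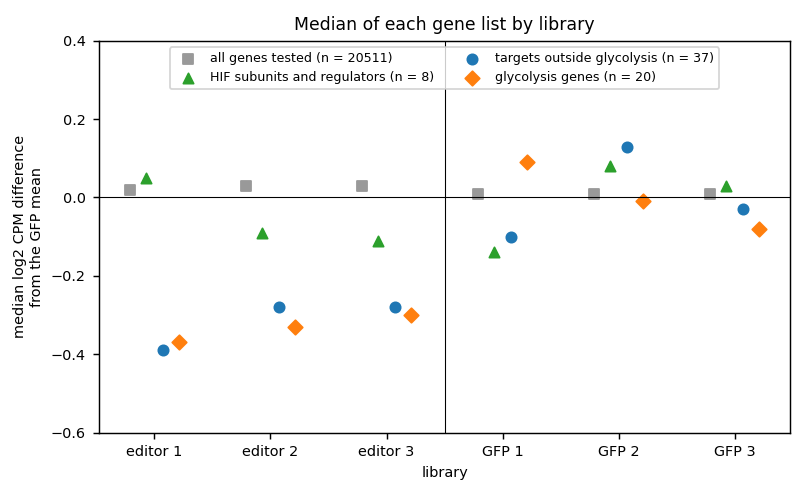
Median over each gene list of log2 CPM minus the GFP mean (y axis) in each library (x axis), for all genes tested, the 8 subunits and regulators, the 37 targets and the 20 glycolysis genes. The targets lie between -0.39 and -0.28 in the editor libraries and between -0.10 and 0.13 in the GFP libraries, and all genes stay at 0.01 to 0.03.

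With each library left out in turn, between 33 and 36 of the 37 targets stayed below 0 and the median ranged from -0.42 (without GFP library 1) to -0.27 (without GFP library 2). For the subunits and regulators the median ranged from -0.15 to 0.04, so it had no fixed sign. The calls of single targets depended on tool and library. DESeq2 called HILPDA (adjusted p = 0.000915), DDIT4 (0.00102), P4HA1 (0.0109), ANKRD37 (0.015) and LOX (0.0463). Without editor library 1, edgeR called HILPDA (adjusted p = 0.0362), P4HA1, P4HA2 and NDRG1 lower, where 0.254% of all genes were. None of the 45 was called without editor library 2 or 3, where the adjusted p of HILPDA and of VHL was 0.999, or with those 2 libraries summed, where it was 1. Few genes of any kind were called in these fits. The calls over all genes were 6 of 21005, 4 of 20890 and 6 of 20966 higher, in that order, and 0 lower. Over the 14 alternatives the adjusted p ranged from 3.7e-05 to 1 for HILPDA, from 1.5e-05 to 1 for LOX, from 0.000548 to 1 for DDIT4, from 0.00171 to 1 for P4HA1, from 0.00751 to 1 for ANKRD37, from 0.0195 to 1 for P4HA2, from 0.0494 to 1 for NDRG1 and from 0.0456 to 1 for VHL. In the authors' deposited table, which lists 44 of the 45 genes, 38 had a log2 fold change below 0. The share of all genes below 0 was not counted in that table. Of the 44, 0 passed an adjusted p of 0.05, and the smallest adjusted p was 0.479. Only 3 of all genes in that table passed, so few genes of any kind were called there.

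Glycolysis genes, which share the regulator but are not among the 45, had a similar median. All 20 were below 0 (45.7% of all genes) with a median of -0.33, and in 18 every editor library lay below every GFP library (6.12% of all genes). PFKFB4, a kinase that sets the level of a glycolytic activator, had 24.6, 32.4 and 33.7 CPM in the editor and 49.4, 54.4 and 44 CPM in the GFP libraries (log2 fold change -0.70, SE 0.14, adjusted p = 0.4). PGK1 stood at -0.57, ENO1 at -0.56 and GAPDH at -0.64. Of 26 further hypoxia-linked genes outside both lists, 23 were tested and 17 of these were below 0, with a median of -0.15 and 0 called. At an unadjusted p under 0.05, 5 were lower (2.57% of all genes) and 0 higher (6.1%). Every editor library lay below every GFP library in 6 of the 23 (6.12% of all genes) and above in 2 (8.63%). The smallest p were those of CXCR4, a chemokine receptor (-0.44), STBD1, a glycogen-binding protein (-0.80), SLC2A3, a glucose transporter (-0.44), and ISM1 (-0.34). STBD1 shares 58.1% of its exon length with other genes, chiefly a read-through gene. Of 18 genes that act with HIF as partners, ligase subunits, coactivators or chaperones, 13 were below 0 (45.7% of all genes), with a median of -0.05. Of these 18, 0 were called or had an unadjusted p under 0.05. Every editor library lay below every GFP library in 3 of the 18 (6.12% of all genes) and above in 0 (8.63%). HSP90AB1, a chaperone of the alpha subunit, stood at -0.20, HIF3A at -0.26, RACK1 at -0.17 and HSP90AA1 at 0.14.

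Other features differed between the groups beside these genes. Mitochondrially encoded genes took 4.62% to 6.39% of counts in the editor and 3.42% to 4.49% in the GFP libraries. Of 10 fibroblast markers, 7 were tested and all 7 were above 0 (54.3% of all genes), 5 of them with every editor library above every GFP library (8.63% of all genes). Their summed level was 43.4 to 46 CPM against 36.5 to 38.5 CPM, with COL1A2, THY1 and FAP at or near 0. Of 11 kidney and epithelial markers, 10 were tested and 6 were above 0, and their sum was 1340 to 1370 CPM against 1570 to 1660 CPM, most of it VIM. VIM alone had 935 to 950 CPM in the editor and 1120 to 1260 CPM in the GFP libraries (log2 fold change -0.34, adjusted p = 0.491 by edgeR). The lower sum therefore mostly reflects VIM and is no measure of the epithelial markers as a set. The epithelial markers EPCAM and CDH1 stood the other way from VIM, with separate groups. EPCAM had 1.65 to 2.42 against 1.09 to 1.58 CPM (0.75 on the log2 scale) and CDH1 10.1 to 10.7 against 7.51 to 9.03 CPM (0.31). PAX8 was near 0. Summed endothelial markers stood at 1.83 to 2.77 against 1.37 to 1.99 CPM and immune markers at 2.45 to 3.64 against 2.47 to 2.95 CPM, with AIF1 at 0 in every library. The part of these differences in the lower target levels was not tested. In bulk RNA, fewer cells that express a gene and less of its RNA per cell cannot be told apart.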

How the data were processed

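Per the labels' protocols, polyA RNA from RNeasy preparations went into TruSeq libraries for a NovaSeq instrument. The submitters' processing notes list HISAT2, featureCounts and limma. Genome build, annotation release, strand setting and the handling of reads with several matches were not stated there. Raw counts of reads per gene were deposited with 1 column per library, together with a comparison table whose first 15273 rows were used. That table's log2 fold changes and adjusted p-values are the authors' own.

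The test was that of edgeR 4.0.16 (R 4.3.3, TMM scaling, default expression filter, quasi-likelihood F-test, Benjamini-Hochberg adjustment over 20511 genes, threshold 0.05, 3 against 3, no block). Standard errors follow from the fold change and F, and intervals are at 95%. CPM use TMM-scaled library sizes, and log2 CPM a prior count of 2. Symbols came from a table of gene IDs. Lengths, overlaps and gene coordinates came from GENCODE 29 (GRCh38, matched by ID without version, 58207 IDs), which may not be the authors' annotation. Promoter sequences came from RefSeq (GRCh38.p14).

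Alternatives were RLE scaling, library totals, no low-count filter, DESeq2 1.42.0, limma-voom (limma 3.58.1), a minimum of 50 reads in 3 libraries, a replicate block, each library left out, and editor libraries 2 and 3 summed. The 45 genes, the other lists and the tests were chosen with earlier results of these data known, so lists are described by counts and medians and get no test. Values in every library are given for the subunits and regulators, for the 12 other members with the smallest p, and for any called in an alternative. Up to 4 genes with the smallest p are named from each other list. Library values of BNIP3, PDK1 and CA9, and the marker genes named, were chosen after their values were seen. The sample titles call all 6 libraries biological replicates. They do not say whether these were separate cultures or transfections, so p-values measure only the spread between these libraries.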

Additional observations from a re-analysis of the deposited data

How the results depend on the processing

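The member counts of 0 higher and 0 lower became 6 lower with no low-count filter, 5 lower with DESeq2, and 0 to 1 higher and 0 to 4 lower over the libraries left out. Removing the filter made calls of P4HA2, LOX, P4HA1, HILPDA, DDIT4 and ANKRD37 (adjusted p from 1.5e-05 to 0.0195). Over all genes, the 5 higher and 0 lower calls became 3 higher with limma-voom, 47 and 32 with DESeq2, 178 and 129 with no filter, and 1 to 159 higher and 0 to 54 lower over the libraries left out. The replicate block left 1 higher call over all genes and 0 members called. Deviations from the group mean correlated across genes at -0.048, 0.173 and -0.237 between libraries of the same number. Editor libraries 2 and 3 were nearly alike, so these values cannot decide whether the numbers pair the samples. Editor library 1 correlated best with GFP library 3 (0.291). The median of the targets ranged from -0.42 to -0.27 over the libraries left out, that of subunits and regulators from -0.15 to 0.04, and that of glycolysis genes from -0.39 to -0.32. Signs near 0 turned. HIF1A was 0.00504 with library totals, 0.0232 with editor libraries 2 and 3 summed and -0.22 to 0.0373 over the libraries left out. EPAS1 was -0.00282 with RLE scaling, -0.0356 without the filter, -0.00284 with DESeq2 and -0.0847 to 0.0898 over the libraries left out, and HIF1AN was -0.0114 without the filter. Over all genes of the main fit, the median shift in log2 fold change was 0.05 with library totals and -0.05 without the filter. With RLE scaling and with DESeq2 it was -0.02. The cause of these shifts was not tested. Low depth limits MIR210HG, CA9 and EGLN2, and exon overlap limits CA9, EGLN2, ZNF395, ANKRD37 and DDIT4.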
